A study of Mus musculus with 12 samples.

Results

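This account follows 10 genes for enzymes that add or remove acetyl groups on lysine and do not belong to the MYST family, out of 27179 genes in the count table. They were chosen by name, as the rows whose mouse Entrez identifier maps to Ep300, Crebbp, Kat2a, Kat2b, Hdac1, Hdac2, Hdac3, Hdac4, Hdac5 or Hdac9. That rule uses no measured value, but the names were chosen with earlier results of these data known. All 10 were found, and all 10 passed the filter on low counts that left 14136 genes for testing. Messenger RNA was sequenced from fibroblasts, the connective-tissue cells that grow out of dissociated embryos, taken from wild-type C57BL/6 mouse embryos at day 13.5 and grown in serum under 3% oxygen. Cells were given 10 µM WM-8014, labelled an inhibitor of the MYST acetyltransferases, or 10 µM WM-2474, labelled its inactive control compound, so every library comes from compound-treated cells. Treatment lasted 96 or 240 h, and each of the 4 groups holds 1 library from each of cultures 5, 6 and 7, 12 in all. The question the design poses for these genes is whether cells given WM-8014 hold different amounts of their mRNA than cells given WM-2474. The activity of the MYST enzymes was not measured in these data.

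Acetylation of histone lysines loosens the contact of histones with DNA and is read by bromodomain and YEATS proteins, and its level is set by acetyltransferases acting against deacetylases. p300 (Ep300) and CBP (Crebbp) are large paralogous coactivators that many transcription factors recruit to enhancers. GCN5 (Kat2a) and PCAF (Kat2b) are alternative catalytic subunits of the coactivator complexes SAGA and ATAC. HDAC1 and HDAC2 are the class I deacetylases of the SIN3, NuRD, CoREST and MiDAC complexes, and HDAC3 is another class I deacetylase. HDAC4, HDAC5 and HDAC9 are class IIa deacetylases, which bind MEF2 transcription factors, have weak catalytic activity of their own, and leave the nucleus bound to 14-3-3 proteins when calcium-dependent kinases phosphorylate them.

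Library totals ran from 10147466 to 45903190 reads, and 3 reads corresponded to 0.0654 to 0.296 CPM (reads scaled to the library total after TMM). The defining genes of fibroblasts were abundant in every library, at a sum of 23800 to 40800 CPM over 8 markers. The labels call all 12 libraries female. Each nevertheless contained RNA of 4 Y-linked genes (Ddx3y ran from 96.3 to 124 CPM), whereas Xist had 0 to 4 reads. The WM-2474 libraries of cultures 6 and 7 at 96 h stood apart from the other 10, with Misp3 at 0.724 and 0.943 CPM against 79.9 to 285 and Stag3 at 1.81 and 2.5 against 22.9 to 37.5. Counts or values without that pair of libraries are given beside the results that use the pair. Such fits leave 1 library in the WM-2474 96 h group, which is then assumed to vary like the other groups. Calls can be lost through the smaller number of libraries alone, so a lost call does not show that a result came from that pair. In bulk RNA, fewer cells of a type and less RNA per cell cannot be told apart.

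In the coordinates of GRCm38 (mm10), as RefSeq gives them, Kat2a and Hdac5 share a chromosome, and no other pair of the 10 does. Hdac2 spans chr10:36974297-37001889 on the plus strand, and Hdac1 chr4:129516104-129542646 on the minus strand. Kat2b spans chr17:53566774-53672721 and Ep300 chr15:81586209-81652077 on the plus strand. On the minus strand are Crebbp at chr16:4081334-4213957, Kat2a at chr11:100704746-100712485, Hdac5 at chr11:102195747-102230172, Hdac4 at chr1:91928779-92195702 and Hdac9 at chr12:34047580-34917095. The deposited counts give a single value for each gene, so exons and isoforms are not told apart.

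The promoters of a pair of class IIa genes are shown because their mRNAs went in opposite directions over time under WM-2474. Both are the 250 bases before the transcription start in RefSeq's GRCm38.p6 annotation, written 5′ to 3′ on the strand of the gene, which is the minus strand for both. The Hdac4 window is chr1:92180342-92180591 and the Hdac5 window is chr11:102230173-102230422. Capitals mark CCAAT and GGGCGG, each searched on both strands, so that ATTGG and CCGCCC are the same motifs read on the other strand.
Hdac4: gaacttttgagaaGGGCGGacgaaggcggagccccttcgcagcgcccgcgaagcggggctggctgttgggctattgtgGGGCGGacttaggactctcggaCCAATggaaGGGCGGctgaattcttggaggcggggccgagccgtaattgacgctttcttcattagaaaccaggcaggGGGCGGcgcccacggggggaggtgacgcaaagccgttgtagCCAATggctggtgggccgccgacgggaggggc
Hdac5: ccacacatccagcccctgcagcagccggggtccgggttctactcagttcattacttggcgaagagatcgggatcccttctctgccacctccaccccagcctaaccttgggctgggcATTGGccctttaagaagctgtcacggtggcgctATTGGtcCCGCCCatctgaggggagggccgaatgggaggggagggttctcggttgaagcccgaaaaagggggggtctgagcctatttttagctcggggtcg
Hdac4 held 4 GGGCGG and 2 CCAAT matches, and Hdac5 held 1 GGGCGG and 2 CCAAT matches. Of 32851 mouse promoter windows of that length, 32.7% held GGGCGG and 33.8% held CCAAT, so a match to either is common. TTTCCCGC, TGACGTCA and CACGTG, present in 0.895%, 1.55% and 6.02% of windows, were in neither. The Hdac4 window lies inside the RefSeq span of the gene, which has a start farther upstream. The promoter table from RefSeq matched 8 of the 10 genes, all but Hdac1 and Hdac3.

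The enzymes covered a wide range of mRNA level. Levels between genes are compared as CPM per kilobase of the deposited gene length. In the WM-2474 96 h group Hdac2 was highest at 65.6 ± 1.24 CPM per kilobase (SD, n = 3), followed by Hdac3 at 40.6 ± 0.971, Hdac5 at 37.0 ± 0.938 and Kat2a at 21.4 ± 0.358. Hdac1 at 13.8 ± 0.415 and Ep300 at 13.7 ± 0.324 followed, and these neighbours' ranges overlapped. Below them were Crebbp at 8.03 ± 0.205, Hdac4 at 6.68 ± 0.333, Kat2b at 3.80 ± 0.379 and Hdac9 at 0.637 ± 0.0332 CPM per kilobase. The other neighbours in this order did not overlap. Hdac9 rested on 23 to 137 reads per library, and each other enzyme on at least 131. Of the 50-base stretches of their transcripts, 35.5% for Hdac1, 21.6% for Hdac4 and 7.28% for Kat2b also occur in other genes. For Hdac2 and Hdac3 that share was 0. How far such sharing shifts the levels, their order and their sums was not tested.

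The order was nearly the same in the other groups. At 240 h Hdac4 ranked above Crebbp under both compounds, at 8.33 against 7.81 CPM per kilobase with WM-2474 and 9.53 against 7.31 with WM-8014, with no overlap in either. Of the 4 groups, Hdac3 and Hdac5 overlapped in 1, WM-8014 at 240 h, which was also the group where Ep300 lay above Hdac1 with no overlap. Summed per kilobase, the 6 deacetylases came to 164 ± 2 with WM-2474 and 157 ± 2.1 with WM-8014 at 96 h, and to 153 ± 2 and 145 ± 1.6 at 240 h. The 4 acetyltransferases came to 47 ± 0.33 and 50.1 ± 1.5 at 96 h, and to 45.7 ± 0.8 and 44.7 ± 1.1 at 240 h. These sums describe the pool of mRNA and were not tested.

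**Figure D1:**
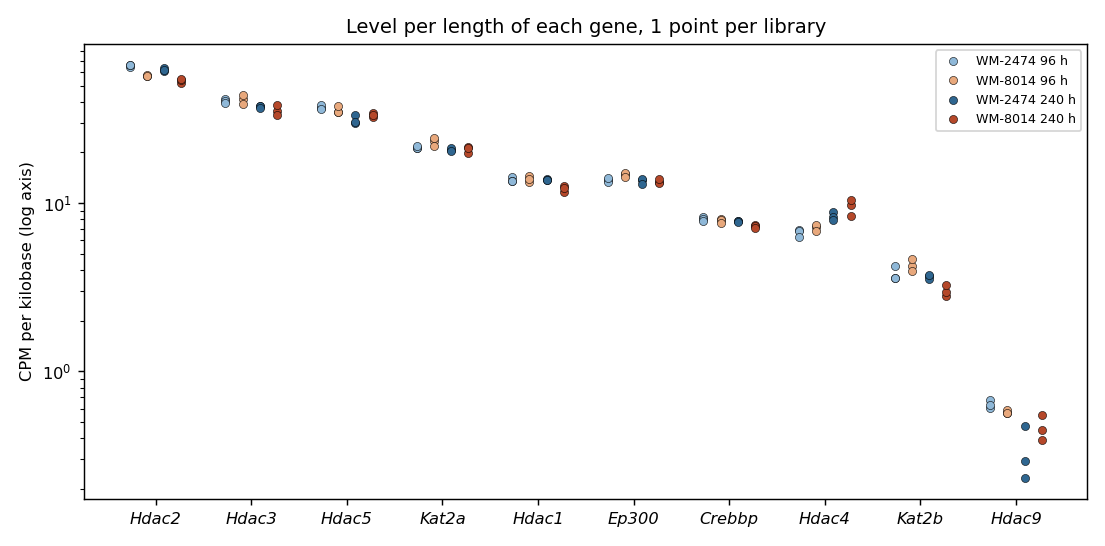
Level of each of the 10 enzymes in each of the 12 libraries, as CPM per kilobase of gene length on a log axis, with genes ordered by their mean in the WM-2474 96 h group and colours for the 4 groups. Hdac2 lies highest at 65.6 CPM per kilobase in that group and Hdac9 lowest at 0.637, and Hdac4 passes Crebbp at 240 h.

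Over the 12 libraries single genes varied little. The ratio of the highest to the lowest library was 1.15 for Crebbp, 1.16 for Ep300, 1.22 for Kat2a, 1.25 for Hdac1, 1.28 for Hdac2 and Hdac5 and 1.31 for Hdac3. It was 1.65 for Kat2b, 1.66 for Hdac4 and 2.9 for Hdac9.

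**Figure D2:**
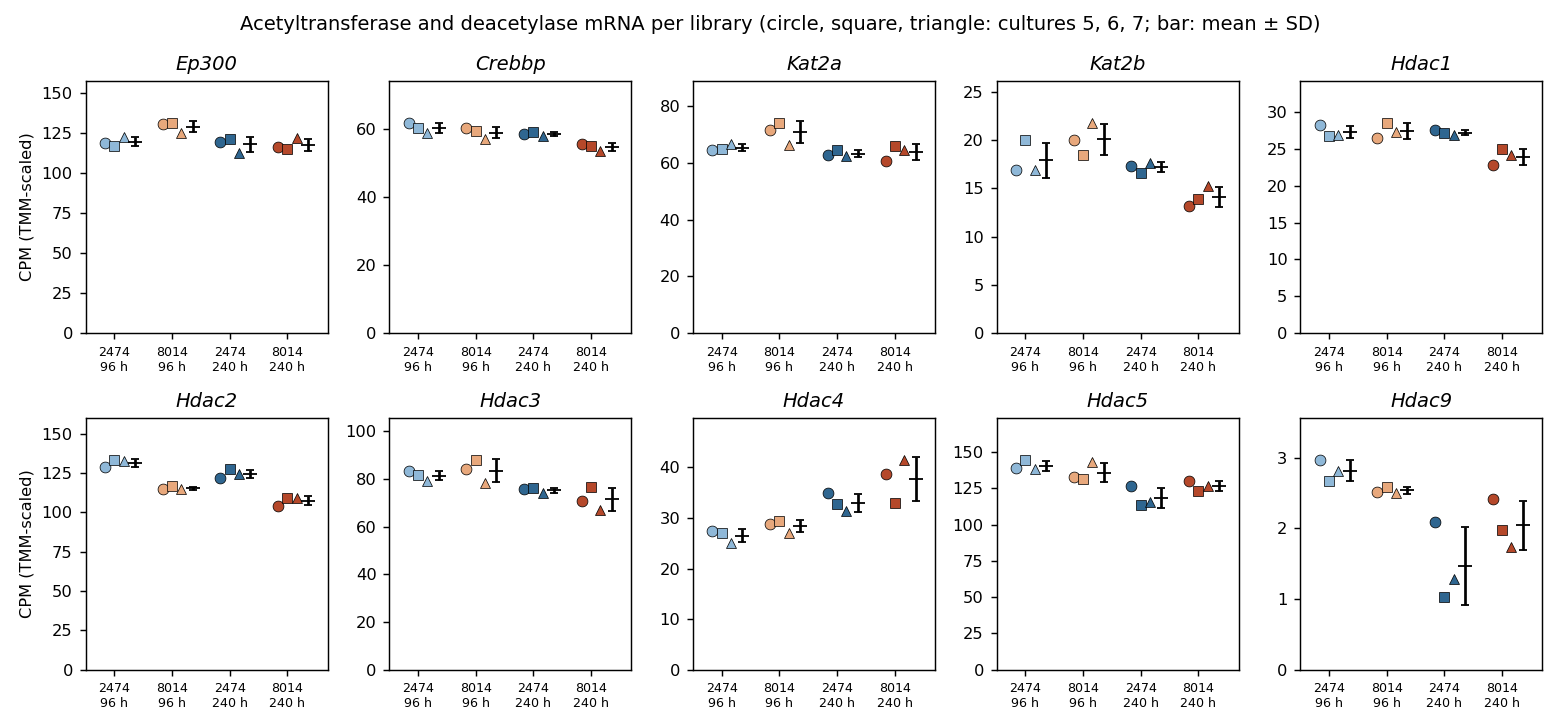
TMM-scaled CPM of each enzyme per library, with each vertical axis from 0, circles, squares and triangles for cultures 5, 6 and 7, and bars for the mean ± SD (n = 3). Hdac2 is lower with WM-8014 at both times, Kat2b is lowest with WM-8014 at 240 h, and Hdac4 is higher at 240 h than at 96 h under both compounds.

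WM-8014 at 96 h lowered the mRNA of 1 of the 10 enzymes, Hdac2, and raised none at an adjusted p under 0.05. Of all 14136 genes, 22.8% passed, 10.9% higher and 11.8% lower, so the share of the 10 was no larger than the background. At 240 h 3 of the 10 were lower, namely Hdac2, Kat2b and Hdac1, and none was higher, where 42.6% of all genes passed, 21.2% higher and 21.4% lower. The median log2 fold change of the 10 was 0.03 at 96 h and -0.04 at 240 h, beside 6.3e-05 and 0.00506 over all genes. Both groups' CPM did not overlap for 3 of the 10 at 96 h and 4 of the 10 at 240 h, against 38.1% and 51.8% of all genes. At an unadjusted p under 0.05, 3 were higher and 1 lower at 96 h and 2 higher and 4 lower at 240 h, and DESeq2 called 0 higher and 1 lower at 96 h and 0 higher and 2 lower at 240 h. Without the pair of libraries that stood apart, edgeR called 0 of the 10 at 96 h (1 lower at an unadjusted p under 0.05), and the number of genes called over the whole table was 869 in place of 3218.

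**Figure D3:**
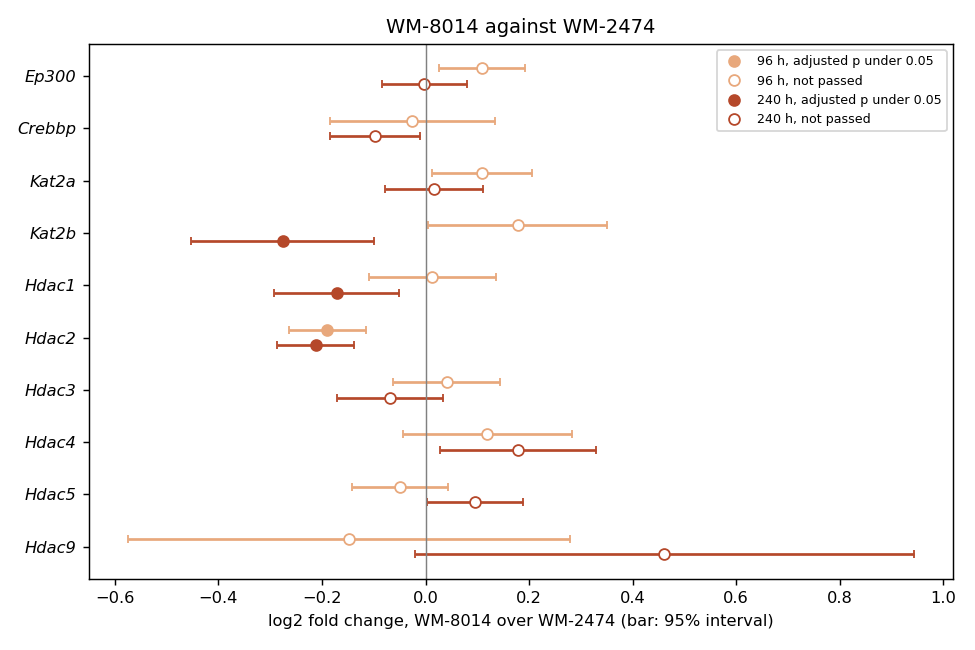
Log2 fold change of WM-8014 over WM-2474 for each enzyme at 96 and 240 h, with 95% intervals and filled points where the adjusted p was under 0.05. Hdac2 is filled at both times, at -0.19 and -0.21, and Kat2b and Hdac1 are filled at 240 h.

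The p300 and CBP mRNAs did not pass at either time. Ep300 was at 119.3, 117.1 and 122.7 CPM in cultures 5, 6 and 7 with WM-2474 at 96 h and at 131.1, 131.5 and 125.3 CPM with WM-8014. Every WM-8014 library lay above every WM-2474 library, by a log2 fold change of 0.11 ± 0.04 (SE), with an adjusted p of 0.0539. That value fell under the threshold when culture 7 was left out (0.0326), when WM-8014 culture 7 at 96 h was left out (0.0406) and when the fit held only the groups compared (0.0467). It also passed without culture 7 of WM-2474 or of WM-8014 at 240 h (0.0469 and 0.0461). In the other 17 of 22 alternatives it did not pass, and over all 22 the log2 fold change ran from 0.08 to 0.15. At 240 h Ep300 was at 119.8, 121.7 and 113 CPM with WM-2474 and 116.6, 115.1 and 122.3 with WM-8014, and the groups overlapped. The 95% interval of that log2 difference was -0.08 to 0.08 (adjusted p = 0.973).

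Crebbp, the paralogue of Ep300, was at 61.8, 60.3 and 58.8 CPM with WM-2474 and 60.5, 59.4 and 57.2 with WM-8014 at 96 h, and these ranges overlapped. At 240 h it was at 58.6, 59.1 and 58.0 CPM with WM-2474 and 55.8, 55.2 and 53.6 with WM-8014. Those groups did not overlap, and the log2 fold change of -0.10 ± 0.042 had an adjusted p of 0.0678. The ratio of Ep300 to Crebbp per kilobase ran from 1.66 to 1.79 with WM-2474 and 1.86 to 1.9 with WM-8014 at 96 h, and from 1.67 to 1.77 and 1.79 to 1.96 at 240 h, so it was higher in each WM-8014 library at both times, as a description with no test.

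Of 8 listed partners of p300 and CBP, 6 were tested, and 1 rose and 1 fell at 96 h. At 240 h 2 rose and 2 fell. These counts stand beside the 22.8% and 42.6% of all genes that passed. DESeq2 called 0 higher and 1 lower at 96 h, with 1 higher at an unadjusted p under 0.05. Without the libraries that stood apart 0 passed at 96 h, with 1 lower at an unadjusted p under 0.05. Creb1, the cyclic AMP response factor that recruits CBP, fell from 53.6 ± 1.09 to 46.9 ± 1.33 CPM at 96 h (adjusted p = 0.00625) and from 50.9 ± 2.19 to 40.1 ± 0.699 at 240 h (5.08e-06). Crtc1, a coactivator of CREB, rose from 27.2 ± 0.183 to 31.1 ± 0.487 CPM at 96 h (0.0494 by edgeR and 0.122 by DESeq2) and from 24 ± 2.57 to 30.2 ± 2.14 at 240 h (0.000843). Cited2, which binds the CH1 domain of p300 and CBP, rose from 140 ± 4.26 to 175 ± 17.7 CPM at 240 h (0.00535).

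Kat2b, which encodes PCAF, fell with WM-8014 at 240 h, whereas its paralogue Kat2a, which encodes GCN5, did not pass. At 240 h Kat2b was at 17.3, 16.6 and 17.6 CPM with WM-2474 and 13.2, 13.9 and 15.2 with WM-8014. The ranges did not overlap, and the fall was 1.21-fold (log2 -0.28 ± 0.085, adjusted p = 0.0118, lower in 3 of 3 cultures). The call was lost without culture 5 (0.0833) and without WM-8014 culture 6 at 240 h (0.0579). At 96 h Kat2b was at 16.9, 19.97 and 16.9 CPM with WM-2474 and 19.97, 18.5 and 21.8 with WM-8014, which overlapped. The 96 h log2 fold change of 0.18 ± 0.0834 had an adjusted p of 0.132. It reached 0.31 without culture 6 (0.0393) and 0.25 when that culture was left out of WM-2474 at 96 h alone (0.0485). In the other 20 of 22 alternatives it did not pass, and over all 22 it ran from 0.05 to 0.31. In GENCODE vM21, 7.28% of the 50-base stretches of Kat2b transcripts also occur in the pseudogene Kat2b-ps.

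In the fit over all libraries, Kat2b was the one enzyme of the 10 whose difference between compounds itself differed between the times. The interaction was -0.45 ± 0.119 on the log2 scale (adjusted p = 0.0156), 1 of 10 where 10.7% of all genes passed, 5.15% higher and 5.53% lower. It was lost without culture 5 (0.142), without culture 7 (0.16), without culture 7 of WM-2474 at 96 h (0.0729) or of WM-8014 at 96 h (0.0508), and without both libraries that stood apart (0.0579). The other 9 interactions lay between -0.19 (Hdac1) and 0.61 (Hdac9), with adjusted p from 0.156 to 0.851. That of Hdac5 passed without WM-2474 culture 5 at 240 h (log2 0.19, 0.0474), but not in the other 20 of 21 alternatives.

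Kat2a was at 64.5, 65.0 and 66.6 CPM with WM-2474 and 71.7, 74.0 and 66.4 with WM-8014 at 96 h. Culture 7 with WM-8014 lay inside the WM-2474 range, and the log2 fold change of 0.11 ± 0.0463 did not pass (adjusted p = 0.0946). Without that library it was 0.15 and passed (0.03), but it did not pass in the other 21 of 22 alternatives. At 240 h Kat2a was at 62.7, 64.6 and 62.5 CPM with WM-2474 and 60.5, 66.0 and 64.4 with WM-8014, with a 95% interval of -0.08 to 0.11 for the log2 difference. The ratio of Kat2a to Kat2b per kilobase was 5.48 to 6 with WM-2474 at 240 h and 6.53 to 7.33 with WM-8014.

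The SAGA and ATAC complexes, which house either enzyme, had 24 listed subunits. At 96 h 5 fell and 0 rose, and at 240 h 7 fell and 1 rose, with medians of -0.01 and -0.06, where 22.8% and 42.6% of all genes passed, 11.8% and 21.4% lower. With the libraries that stood apart left out, 1 fell at 96 h. DESeq2 called 4 and 7 lower, and 1 was higher at 96 h at an unadjusted p under 0.05. Wdr5, a scaffold of ATAC and of other complexes, fell from 56.1 ± 1.95 to 47 ± 2.93 CPM at 96 h (adjusted p = 0.00137) and from 51.3 ± 1.58 to 43.4 ± 0.945 at 240 h (0.000633). Supt20, a structural subunit of SAGA, fell from 53.6 ± 2.97 to 47.7 ± 1.75 CPM at 96 h (0.0196) and from 59.3 ± 2.46 to 42.8 ± 1.58 at 240 h (2.29e-07). Usp22, the deubiquitinase of SAGA, fell 1.1-fold (0.00679) and then 1.14-fold (0.000111). Yeats2, the acetyl reader of ATAC, fell 1.12-fold (0.0109) and 1.2-fold (5.81e-05).

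Hdac2 was the enzyme of the 10 that passed at both times. At 96 h it was at 128.7, 133.4 and 132.3 CPM with WM-2474 and at 114.7, 116.4 and 115 with WM-8014. At 240 h it was at 122, 127.3 and 124.2 CPM with WM-2474 and at 104, 108.8 and 109.1 with WM-8014. No WM-8014 library reached a WM-2474 library of the same time. The fall was 1.14-fold at 96 h (log2 -0.19 ± 0.036, adjusted p = 0.000661) and 1.16-fold at 240 h (log2 -0.21 ± 0.0357, 5.47e-05), in 3 of 3 cultures each time. Without both libraries that stood apart, the 96 h value was -0.16 with an adjusted p of 0.0975. Hdac2 transcripts shared no 50-base stretch with another gene of GENCODE vM21.

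Hdac1 fell with WM-8014 at 240 h by edgeR, a call that was lost in 7 of 22 alternatives. At 96 h it was at 28.2, 26.8 and 26.8 CPM with WM-2474 and 26.4, 28.5 and 27.3 with WM-8014, and at 240 h at 27.6, 27.2 and 26.9 against 22.8, 24.96 and 24.1. The 240 h groups did not overlap, and the log2 fold change was -0.17 ± 0.0581 (adjusted p = 0.0208, lower in 3 of 3 cultures). By DESeq2 the adjusted p was 0.0793, and after thinning to equal depth 0.157. The call was also lost without culture 5 (0.118), 6 (0.0614) or 7 (0.0862), without WM-2474 culture 6 at 240 h (0.0501) and without WM-8014 culture 5 at 240 h (0.0737). In GENCODE vM21, 35.5% of the 50-base stretches of Hdac1 occur in other genes, 31.7% in the pseudogene Gm10093, so reads of Hdac1 may be split or lost in counting. The ratio of Hdac2 to Hdac1 per kilobase was 4.48 to 4.9 with WM-2474 and 4.02 to 4.27 with WM-8014 at 96 h, and overlapped at 240 h, at 4.36 to 4.6 and 4.29 to 4.49.

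Hdac3 did not pass at either time. It was at 83.1, 81.7 and 79.2 CPM with WM-2474 and 84.0, 88.0 and 78.3 with WM-8014 at 96 h. At 240 h it was at 75.5, 76.0 and 74.1 CPM with WM-2474 and 70.6, 76.5 and 67.1 with WM-8014. The ranges overlapped at both times, and the 95% intervals of the log2 difference were -0.06 to 0.14 and -0.17 to 0.03.

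Some genes of the complexes built on HDAC1 and HDAC2 fell with WM-8014 at both times, and most of the 96 h calls were lost when the libraries that stood apart were left out. Over all genes 22.8% passed at 96 h, 11.8% lower, and 42.6% at 240 h, 21.4% lower. Of 14 SIN3 complex genes 4 fell and 0 rose at 96 h, and 5 fell and 0 rose at 240 h, with medians of -0.06 and -0.10. Without those libraries 0 passed at 96 h, with 3 lower at an unadjusted p under 0.05, and DESeq2 called 3 and 4 lower and 0 higher. At an unadjusted p under 0.05 edgeR too had 0 SIN3 genes higher. The histone-binding subunits Rbbp4 and Rbbp7, which NuRD shares, fell from 196 ± 0.79 to 176 ± 3.65 CPM (adjusted p = 0.00202) and from 246 ± 2.02 to 224 ± 6.28 CPM (0.009) at 96 h. At 240 h Rbbp4 fell from 162 ± 1.16 to 133 ± 3.74 CPM (7.56e-07) and Rbbp7 from 245 ± 5.67 to 201 ± 7.95 (1.26e-06). Ing1, which brings SIN3 to methylated histone H3, fell from 47.9 ± 0.453 to 40.5 ± 3.32 CPM at 96 h (0.00233) and from 49.7 ± 1.02 to 37.8 ± 0.637 at 240 h (2.77e-06).

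Of 9 NuRD genes, 3 fell and 0 rose at 96 h, and 3 fell and 2 rose at 240 h. DESeq2 called 3 lower and 0 higher at each time, with 1 and 2 higher at an unadjusted p under 0.05, and without the libraries that stood apart 0 passed at 96 h (2 lower at an unadjusted p under 0.05). Chd3, a remodelling ATPase of NuRD, fell from 417 ± 20.5 to 385 ± 5.94 CPM at 96 h (adjusted p = 0.0222, and log2 -0.03 without the libraries that stood apart) and from 472 ± 3.76 to 360 ± 5.01 at 240 h (1.05e-08). Mta1 and Mta2, scaffolds that bind HDAC1 and HDAC2, fell 1.12-fold (0.00703) and 1.09-fold (0.0133) at 96 h, and 1.1-fold (0.00598) and 1.09-fold (0.0109) at 240 h. Of 7 CoREST and MiDAC genes, 1 fell at each time, and with those libraries left out 1 rose and 1 fell at 96 h. The gene that fell in the fit over all libraries was Kdm1a, the histone demethylase of CoREST. It went from 115 ± 5.6 to 98.1 ± 3.19 CPM at 96 h (0.00103) and from 114 ± 4 to 82.7 ± 1.41 at 240 h (2.22e-08).

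Hdac4, Hdac5 and Hdac9 did not pass between compounds at either time. Hdac4 was at 27.4, 27.1 and 24.96 CPM with WM-2474 and 28.7, 29.4 and 27.1 with WM-8014 at 96 h, with a log2 fold change of 0.12 ± 0.0785 (adjusted p = 0.3). At 240 h it was at 34.9, 32.7 and 31.4 CPM with WM-2474 and 38.6, 33.0 and 41.5 with WM-8014. WM-8014 was higher in 3 of 3 cultures, but culture 6 lay inside the WM-2474 range, and the log2 fold change of 0.18 ± 0.0722 had an adjusted p of 0.0519. With culture as a block that became 0.037, with no filter on low counts 0.0383 and with equal depth 0.0179. Without WM-8014 culture 6 at 240 h it was 0.00204 (log2 0.29) and without culture 6 altogether 0.0127 (log2 0.28). Without WM-2474 culture 5 at 240 h it was 0.0397. In the other 16 of 22 alternatives Hdac4 did not pass, and over all 22 its log2 fold change ran from 0.06 to 0.29. In GENCODE vM21, 21.6% of the 50-base stretches of Hdac4 occur in Gm26720, a noncoding gene on the opposite strand of its locus, and the strand setting of the counting is not given in the sources used here.

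Hdac5 was at 138.8, 144.7 and 138.3 CPM with WM-2474 and 132.9, 131.4 and 143.1 with WM-8014 at 96 h. At 240 h it was at 126.4, 113.2 and 115.6 CPM with WM-2474 and 129.8, 123.3 and 126.8 with WM-8014. The groups overlapped at both times, and the 240 h log2 fold change of 0.10 ± 0.0443 had an adjusted p of 0.0869. Without WM-2474 culture 5 at 240 h it was 0.14 and passed (0.0154), but it did not pass in the other 21 of 22 alternatives.

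Hdac9 was rare. At 96 h it was at 2.97, 2.68 and 2.81 CPM with WM-2474, from 32, 37 and 137 reads, and at 2.51, 2.59 and 2.50 CPM with WM-8014, from 37, 38 and 37 reads. Those groups did not overlap, but the 95% interval of the log2 difference was -0.57 to 0.28. At 240 h it was at 2.09, 1.02 and 1.29 CPM with WM-2474 and 2.42, 1.97 and 1.73 with WM-8014. The log2 fold change of 0.46 ± 0.232 did not pass (adjusted p = 0.115). Without WM-2474 culture 5 at 240 h it was 0.78 and passed (0.011), as it did without culture 5 altogether (log2 0.69, 0.0465). In the other 20 of 22 alternatives it did not pass, and over all 22 it ran from 0.24 to 0.78.

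Over all genes 10.9% passed higher and 11.8% lower at 96 h, and 21.2% and 21.4% at 240 h. Of 22 listed partners and regulators of the class IIa enzymes 21 were tested. At 96 h 3 were higher and 3 lower, and at 240 h 6 were higher and 5 lower. Without the libraries that stood apart 0 were higher and 1 lower at 96 h, where 0 were higher at an unadjusted p under 0.05 too. DESeq2 called 1 higher and 3 lower at 96 h. Mef2a, a MEF2 factor that these enzymes bind, was at 58.8 ± 4.12 and 60.9 ± 2 CPM at 96 h (adjusted p = 0.69), and rose from 74.8 ± 4.35 to 93.7 ± 1.38 CPM at 240 h (1.74e-05). Camk1, a calcium-dependent kinase, rose from 54.4 ± 1.31 to 61.4 ± 1.13 CPM (0.00728) and from 57.2 ± 1.17 to 71.5 ± 3.71 CPM (6.88e-06). The 14-3-3 gene Ywhae fell 1.08-fold at 96 h (0.0188) and 1.14-fold at 240 h (9.92e-05). The 14-3-3 gene Ywhaz fell 1.1-fold at 96 h (0.0168) and did not pass at 240 h (0.585).

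From 96 to 240 h under WM-2474, Hdac4 rose and Hdac5 and Hdac9 fell, which is 3 of the 10 where 38.9% of all genes passed, 19.8% higher and 19.1% lower. Without the libraries that stood apart, 1 of the 10, Hdac5, passed. Under WM-8014 Hdac4 rose and 7 of the 10 fell (4 by DESeq2), which is 8 of 10 where 49.7% of all genes passed, 24.8% higher and 25% lower. The median log2 change over time of the 10 was -0.05 under WM-2474 and -0.14 under WM-8014, beside -0.01 and -0.02 over all genes. Both times' libraries did not overlap for 5 of the 10 under WM-2474 and for all 10 under WM-8014, against 49.4% and 56.5% of all genes. The comparisons under each compound use the libraries given above, so they share samples with the compound comparisons.

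**Figure D4:**
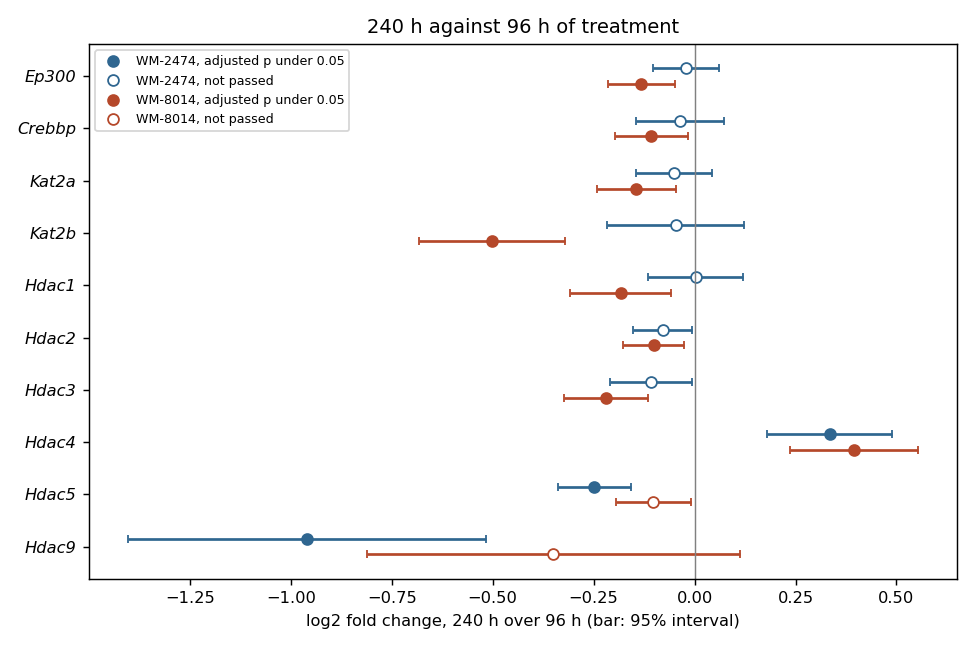
Log2 fold change of 240 h over 96 h for each enzyme under WM-2474 and under WM-8014, with 95% intervals and filled points where the adjusted p was under 0.05. Hdac4 is filled on the right under both compounds, at 0.34 and 0.39, and Kat2b is filled under WM-8014 at -0.50.

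Hdac4 rose 1.26-fold under WM-2474 (log2 0.34 ± 0.0742, adjusted p = 0.0011) and 1.31-fold under WM-8014 (log2 0.39 ± 0.0763, 0.000201), in 3 of 3 cultures each. At equal depth the rise under WM-2474 was 0.19 (0.0875), and without both libraries that stood apart 0.27 (0.144). Hdac5 fell 1.19-fold under WM-2474 (log2 -0.25 ± 0.0439, 0.000112). Under WM-8014 its change of -0.10 ± 0.0447 did not pass (0.0618). It did at equal depth (0.0272), without culture 5 (0.0455), without WM-8014 culture 6 at 96 h (0.0444) and without WM-2474 culture 5 at 240 h (0.0391). In the other 18 of 22 alternatives it did not pass. The Hdac5 to Hdac4 ratio per kilobase with WM-2474 was 5.28 to 5.78 at 96 h and 3.61 to 3.84 at 240 h, and with WM-8014 it was 4.66 to 5.51 and 3.19 to 3.89.

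Hdac9 fell 1.94-fold under WM-2474 (log2 -0.96 ± 0.213, adjusted p = 0.00109), and its change under WM-8014 of -0.35 ± 0.222 did not pass (0.2). The difference between these changes is the interaction of 0.61 ± 0.31, which did not pass (0.245). Without both libraries that stood apart, the fall under WM-2474 was -1.04 (0.053). Mean Hdac9 at 240 h was 1.47 CPM with WM-2474 and 2.04 with WM-8014. The summed level of 4 endothelial markers was lower at 240 h than at 96 h under both compounds. It was 4.99 to 6.11 CPM with WM-2474 and 3.14 to 4.53 with WM-8014 at 96 h, and 1.87 to 2.62 and 1.82 to 2.19 at 240 h. Of these 4 markers, 3 were tested and fell over time under each compound by edgeR. For Kdr the call under WM-2474 was lost without the libraries that stood apart (0.0563), and that under WM-8014 by DESeq2 (0.0857). Pecam1 had 3 to 10 reads per group. The sum of 5 epithelial markers with WM-2474 was 2.03 to 3.9 CPM at 96 h and 0.941 to 1.13 at 240 h. With WM-8014 it was 0.955 to 2.58 and 0.864 to 1.92, which overlapped. Of these 5 markers 1, Krt18, was tested by edgeR. It passed lower over time under WM-2474 (log2 -1.39) and did not pass under WM-8014 (log2 -0.497). The part of endothelial or epithelial cells in the Hdac9 values was not tested.

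Among the 7 enzymes that passed lower over time under WM-8014, Kat2b fell most, at 1.42-fold (log2 -0.50 ± 0.0867, adjusted p = 5.36e-05), followed by Hdac3 at 1.16-fold (log2 -0.22 ± 0.0501, 0.00102). Both passed in each alternative tried. Ep300 fell by 0.13 (0.00941), Kat2a by 0.14 (0.014), Hdac1 by 0.18 (0.0156), Crebbp by 0.11 (0.0441) and Hdac2 by 0.10 (0.025) on the log2 scale. Each of these 5 lost the call in several alternatives, Crebbp in 19 of 22 and Hdac2 in 9 of 22. Under WM-2474 Hdac3 was at -0.11 ± 0.0486 and Hdac2 at -0.08 ± 0.0352, which did not pass (0.0848 and 0.0824). Under WM-2474 Hdac3 passed with culture as a block (0.0296), at equal depth (0.022) and with only the groups compared in the fit (0.0497). Hdac2 passed at equal depth (log2 -0.13, 0.0249). In the other alternatives, 19 of 22 for Hdac3 and 21 of 22 for Hdac2, these falls did not pass.

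Other enzymes of acetylation were read beside these genes. Over all genes 10.9% passed higher and 11.8% lower at 96 h, and 21.2% and 21.4% at 240 h. The 5 MYST acetyltransferases are the family that WM-8014 is labelled to inhibit. Among them Kat6b rose from 49.4 ± 1.26 to 57 ± 2.5 CPM at 96 h (adjusted p = 0.00743) and from 48.4 ± 1.13 to 59.1 ± 3.61 at 240 h (9.67e-05). Kat6a fell from 92.9 ± 3.52 to 80.5 ± 0.221 CPM at 240 h (0.000233), and the other 3 did not pass. Without the libraries that stood apart 0 of the 5 passed at 96 h, with 2 higher at an unadjusted p under 0.05. Of 12 further lysine acetyltransferases 0 rose and 2 fell at 96 h (1 higher and 3 lower at an unadjusted p under 0.05), and 2 rose and 5 fell at 240 h. DESeq2 called 2 lower at 96 h and 2 higher and 3 lower at 240 h, and without the libraries that stood apart edgeR called 0 at 96 h, with 2 lower at an unadjusted p under 0.05. Hat1, which acetylates newly made histone H4, fell 1.52-fold at 240 h (5.81e-05). Esco2, the cohesin acetyltransferase of S phase, fell 1.29-fold at 96 h (0.019) and 2.16-fold at 240 h (1.34e-06). Gtf3c4, a subunit of the RNA polymerase III factor TFIIIC, fell 1.17-fold at 96 h (0.0012), and Ncoa2, a nuclear receptor coactivator, rose 1.13-fold at 240 h (0.00469).

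Beside the deacetylases below, 22.8% of all genes passed at 96 h and 42.6% at 240 h. Of the 5 other zinc-dependent deacetylases 0 passed at 96 h by edgeR or DESeq2, with 1 higher and 1 lower at an unadjusted p under 0.05. At 240 h Hdac11 rose from 7.03 ± 1.09 to 9.83 ± 1.79 CPM (adjusted p = 0.0108) and Hdac7, the remaining class IIa gene, fell from 173 ± 5.22 to 159 ± 4.29 (0.0113). Of 7 sirtuins, the NAD-dependent deacylases, 0 passed at 96 h by edgeR or DESeq2 (2 higher at an unadjusted p under 0.05 by edgeR), and at 240 h Sirt4 and Sirt5 rose (1.19-fold, 0.0309 by edgeR and 0.1 by DESeq2, and 1.36-fold, 0.00406) while Sirt1 fell from 22.4 ± 0.837 to 18.1 ± 1.54 CPM (0.000754).

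Genes for proteins that read acetyl-lysine passed in both directions, with more lower than higher at 240 h. Over all genes 10.9% passed higher and 11.8% lower at 96 h, and 21.2% and 21.4% at 240 h. Of 21 listed readers 20 were tested, with 4 higher and 5 lower at 96 h and 3 higher and 11 lower at 240 h. When the libraries that stood apart were left out, 1 was higher and 2 lower at 96 h, and DESeq2 called 2 higher and 5 lower. Atad2, a bromodomain ATPase, fell from 85.1 ± 1.71 to 63 ± 3.34 CPM at 96 h (adjusted p = 6.58e-06) and from 61.3 ± 1.68 to 28.9 ± 2.35 at 240 h (6.28e-12). Brpf1, a bromodomain protein that holds KAT6A and KAT6B complexes together, was at 45.4 ± 1.24 CPM with WM-2474 and fell to 34.7 ± 1.34 at 96 h (4.6e-05). Mllt3, a YEATS protein, rose from 16.6 ± 1.58 to 31.7 ± 2.05 CPM at 240 h (9.35e-10), and Baz2b, a bromodomain protein, rose 1.25-fold (0.000107) and 1.27-fold (7.48e-06).

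Over all genes 10.9% passed higher and 11.8% lower at 96 h, and 21.2% and 21.4% at 240 h. Of 9 listed genes of acetyl-CoA supply 8 were tested, with 1 higher and 2 lower at 96 h and 2 higher and 1 lower at 240 h. Without the libraries that stood apart 0 were higher and 1 lower at 96 h (1 higher and 3 lower at an unadjusted p under 0.05). Acly, which makes acetyl-CoA from citrate, fell 1.17-fold at 96 h (adjusted p = 0.000111) and 1.1-fold at 240 h (0.00543). Acss2, which makes it from acetate, fell 1.2-fold at 96 h (0.00125). Crat, the carnitine acetyltransferase, rose 1.21-fold (0.00208) and 1.26-fold (0.000125), and Slc33a1, the acetyl-CoA carrier of the endoplasmic reticulum, rose 1.15-fold at 240 h (0.00179).

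**Figure D5:**
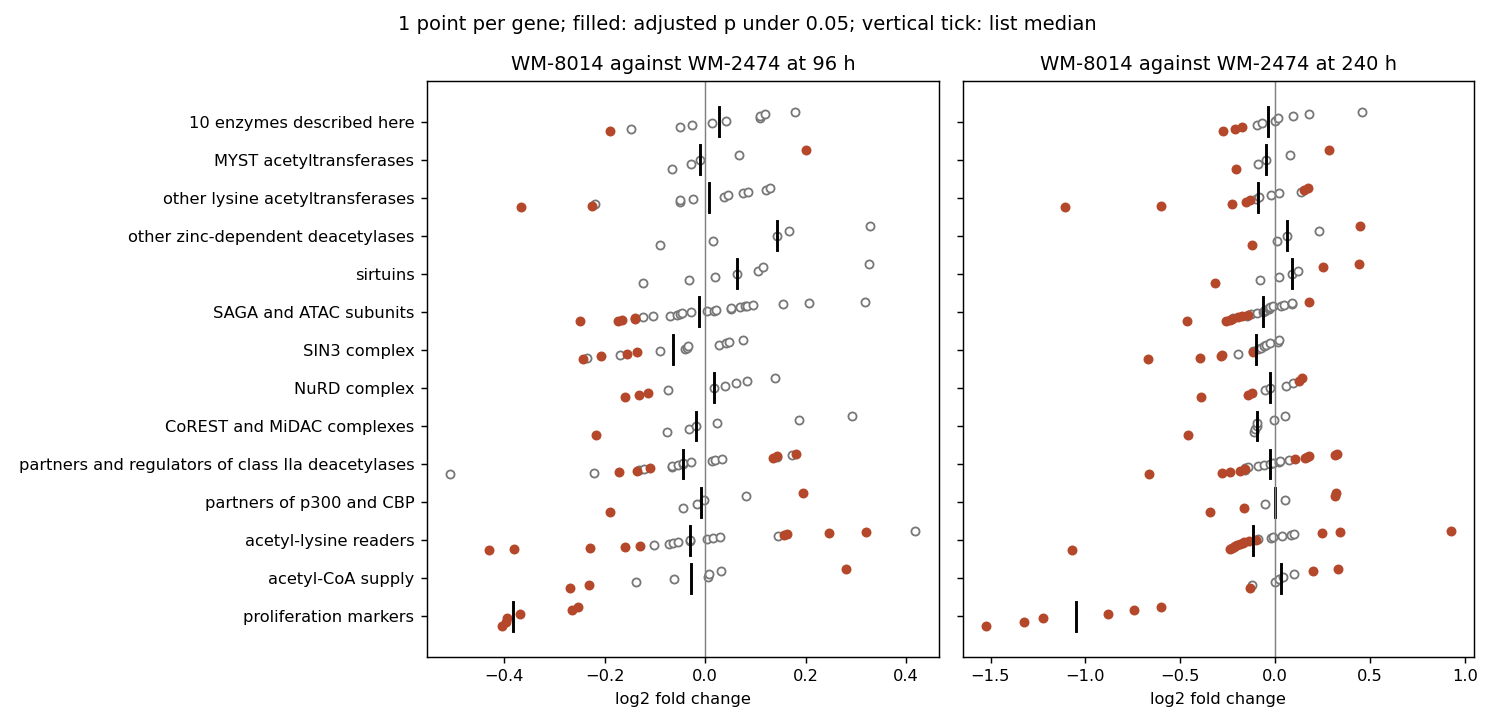
Log2 fold change of WM-8014 over WM-2474 at 96 h (left) and 240 h (right), 1 point per tested gene, by list, with filled points at an adjusted p under 0.05 and a tick at each list's median. The 10 enzymes have medians of 0.03 and -0.04, and the proliferation markers lie farthest to the left, at medians of -0.38 and -1.05.

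Proliferation markers moved with both factors of the design. All 6 fell with WM-8014 at each time and over time under each compound (4 of 6 at 96 h without the libraries that stood apart), and Mki67, for example, was 1.32-fold lower at 96 h (adjusted p = 5.4e-05) and 2.88-fold lower at 240 h (3.1e-12). Their summed level was 690 to 732 CPM with WM-2474 and 530 to 582 with WM-8014 at 96 h, and 472 to 505 and 200 to 233 at 240 h. Its part in the values of Hdac2, Kat2b, Hdac1 and the complex subunits was not tested. The muscle marker Des also differed, though not at 96 h without the libraries that stood apart (adjusted p = 0.161), and the sum of 5 muscle markers was 20.5 to 25 CPM with WM-2474 and 31.6 to 34.6 with WM-8014 at 96 h, and 28.2 to 35.3 and 81.8 to 106 at 240 h, while Myod1 had 0 to 11 reads per group. Summed markers of macrophages reached at most 9.79 CPM and those of epithelium at most 3.9, and those of neurons and glia ran from 51.5 to 72.3 CPM. No marker list held a gene at 0 reads in all 12 libraries.

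Over the 12 libraries, the genes whose log2 CPM was most like that of each enzyme were picked by Pearson's r among 11977 genes, as a description, since libraries share group and culture. For Hdac2 they were Rangap1 (r = 0.984) and Cbfb (0.976), and for Hdac4 Mtm1 (0.958) and Gne (0.956). For Crebbp they were Crebzf and Ppwd1 (both 0.958), for Kat2b Elp4 (0.942) and Gdpd1 (0.941), and for Kat2a Nsun4 (0.941) and Nup214 (0.914). For Ep300 they were U2af1l4 (0.934) and Mbip (0.925), for Hdac1 Cnot6l and Srsf6 (both 0.938) and for Hdac3 Rasl12 (0.939) and Cdca7l (0.936). For Hdac5 they were Snn (0.937) and Maf (0.936), and for Hdac9 Spsb2 (0.919) and Armh4 (0.917).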

How the data were processed

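Raw read counts per gene by Entrez identifier, and a gene length column, were deposited by the authors in 1 table for all 12 libraries. The libraries were made from poly(A) RNA with a kit that keeps strand, per the labels' protocols. Per the submitters' processing notes, the authors counted reads with featureCounts on mm10. Not given in the sources used here are the aligner, the annotation, the strand setting and the versions. The length column served only for CPM per kilobase. Columns were matched to samples by the labels' descriptions, and 25275 identifiers (93%) to RefSeq symbols of assembly GRCm38.p6. Replicate pairs differed by more than sampling noise (chi-square per degree of freedom 2.1 to 7.13), so none was counted as a duplicate. The series calls the cultures biological replicates. Where they share a source that the labels do not give, p-values measure the spread between these libraries.

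In R 4.3.3, edgeR 4.0.16 removed low counts with filterByExpr (14136 genes kept, at least 99.93% of reads), scaled libraries by TMM and fitted 4 group means over 12 libraries with 8 residual degrees of freedom. Each contrast was put to edgeR's quasi-likelihood F test with robust priors (two-sided), with Benjamini-Hochberg adjustment over all genes tested and a threshold of 0.05. Standard errors and 95% intervals were derived from the fold change, its p and the test's degrees of freedom. DESeq2 1.42.0, its size factors, no filter, a culture block, equal depth, fewer groups and left-out libraries were alternatives. The code was tested on simulated data. Stretches of 50 bases shared between genes were counted in GENCODE vM21 transcripts. Floors of 3 reads cover counting error only.

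The members and lists were chosen with earlier results of these data known, so they are no independent evidence. The text names the 10 enzymes whatever their values, up to 3 genes of a list with the smallest p at each time among those that passed, and the 2 genes nearest in pattern to each enzyme, at a mean log2 CPM of at least 1 (prior count 2). Some list genes picked by that rule are given as counts only, another list of partner genes is not reported here, and genes of the label check (Ddx3y, Xist, Misp3 and Stag3) were chosen from their values. Libraries of 1 culture number deviated together at 96 h (correlations across genes of 0.14, 0.15 and 0.16, all over 0.1). At 240 h the correlations were 0.064, 0.24 and 0.048, which are positive but not all over that limit. Each of the 12 libraries correlated best with a library of its own culture number in another group, so the numbers pair the libraries. The printed values come from the fit without the block, and calls of the 10 enzymes that the block changed are given beside them.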

Additional observations from a re-analysis of the deposited data

Results flagged for a closer look

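In this design a compound difference could itself differ between 96 and 240 h, and 1510 genes passed the test of that interaction (edgeR, adjusted p under 0.05). Among the 10 enzymes, Kat2b passed, with an interaction of -0.454 on the log2 scale, from 0.18 at 96 h to -0.28 at 240 h. Of other listed genes, the difference was more negative at 240 h for Esco2 (-0.741), Supt20 (-0.291), Chd3 (-0.279), Kdm1a (-0.241) and Atad2 (-0.642). It was more positive for Mef2a (0.29), Mllt3 (0.68) and Slc33a1 (0.336). With WM-2474 cultures 6 and 7 at 96 h left out, the calls were lost for Kat2b (adjusted p = 0.0579), Esco2 (0.135), Supt20 (0.131), Kdm1a (0.187) and Mef2a (0.218). For the proliferation genes Mki67, Top2a, Cdk1 and Ccnb1 it was -1.13, -0.917, -0.513 and -0.827. For the marker genes Pdgfra, Des and Sox10 it was -0.568, 1.07 and -1.28.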

How the results depend on the processing

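The alternatives kept direction and call for most values of the 10 enzymes, counting those uncalled in the main fit that stayed uncalled. Losses can fall only on values called in the main fit. Over time under WM-8014, Crebbp lost its call in 19 of 22 alternatives and Hdac2 in 9 of 22. Over fold changes, levels and counts of called genes, 1236 values kept their side, 61 lost a call, 26 gained one, 26 changed sign and 10 counts moved by over 1.5 times. Leaving out cultures or libraries gave 1750 to 3392 called genes at 96 h against 3218, 4354 to 6089 at 240 h against 6027, 724 to 1603 for the interaction against 1510, 3816 to 5585 over time under WM-2474 against 5497 and 5470 to 7119 under WM-8014 against 7031. At 96 h, 1854, 2123 and 1750 genes were called without cultures 5, 6 and 7 and 2053 without WM-2474 culture 7, and the interaction had 885, 724 and 867 without those cultures. With the pair of WM-2474 96 h libraries that stood apart (cultures 6 and 7) left out, 869 genes were called at 96 h, 586 for the interaction and 2710 over time under WM-2474, and the log2 fold changes that changed sign were Hdac1 at 96 h (-0.0423), Hdac1 over time under WM-2474 (-0.0520) and Kat2b over time under WM-2474 (0.0245). At equal depth Hdac2 in the interaction was 0.0274 and Hdac1 over time under WM-2474 -0.008157. The causes were not tested.

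Values that changed sign when a culture or library was left out had these ranges over the left-out fits: Hdac1 -0.0244 to 0.0577 at 96 h, Ep300 -0.0606 to 0.0403 and Kat2a -0.0127 to 0.0440 at 240 h, Hdac4 -0.0358 to 0.1685 in the interaction, and Ep300 -0.0584 to 0.0314, Kat2b -0.1297 to 0.0506 and Hdac1 -0.0125 to 0.0232 over time under WM-2474. Each of the 12 libraries correlated best with a library of its own culture number in another group, so the numbers pair the libraries. Outside 96 h the correlations did not all pass the limit of 0.1. The culture block changed no call of the 10 enzymes at 96 h and gave 3590 called genes. It gave 6330 genes at 240 h, 1840 for the interaction, 5811 over time under WM-2474 and 7236 under WM-8014. With the block Hdac4 passed at 240 h (adjusted p = 0.037 by edgeR), as did Hdac3 over time under WM-2474 (0.0296). Depth limits Hdac9 most, at 23 to 137 reads per library.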
